A study of Mus musculus with 21 samples.

Results

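The genes described here are 37 members of the hypoxia-inducible and glycolysis programme in mouse brain, out of 21872 gene symbols counted by RNA-seq. They comprise the hypoxia-inducible factor (HIF) subunits and their regulators, glucose uptake and glycolysis enzymes, and other well-known HIF targets. The members were picked from knowledge of the pathway, but with the E18.5 results of these libraries in view, among them Kdm3a, P4ha1, Slc2a1 and Ddit4. Values of the E18.5 comparison are therefore given as a description, without a test of any member. All 37 symbols were in the count tables of both ages. Car9, the carbonic anhydrase found on hypoxic tumour cells, had too few counts to be tested at either age, which leaves 36 members in each comparison.

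The study gave mice water (control) or trientine (TETA), a chelator that removes copper, and labels the TETA libraries as copper-deficient. Brain RNA was sequenced from 6 control and 6 TETA libraries at embryonic day 18.5 (E18.5) and from 5 control and 4 TETA libraries at 7 weeks after birth. Every label gives the tissue as brain, while the extraction text speaks only of the prefrontal cortex of male mice at 7 weeks, so the region and sex of the E18.5 samples are not known here. Strain, genotype, dose, route and duration of treatment, and whether libraries came from separate animals or litters, are not given in the sources used here. The p-values below therefore measure the spread between these libraries, which may be technical.

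HIF is a transcription factor made of an oxygen-regulated alpha subunit and the constant partner ARNT. With oxygen and iron present, prolyl hydroxylases (the Egln genes) mark the alpha subunit, the VHL ubiquitin ligase binds the mark, and the subunit is degraded. When oxygen is short the subunit persists, pairs with ARNT and binds a short DNA core in the promoters of genes for glucose uptake, glycolysis, vessel growth, collagen processing and stress. Glucose is the main fuel of the brain, and it crosses the vessel wall through the transporter encoded by Slc2a1.

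The E18.5 libraries held 14678265 to 24308555 counts and the 7-week libraries 17838051 to 24035857. Levels are in CPM, counts scaled to library size with edgeR's TMM factors, and a gene passed when its Benjamini-Hochberg adjusted p in edgeR's quasi-likelihood test was under 0.05. At E18.5, 0 of 13794 tested genes passed (0%), against 660 (4.78%) at an unadjusted p under 0.05 and 10 (0.0725%) in DESeq2. At 7 weeks, 1418 of 14240 genes passed (9.96%), 808 higher with TETA (5.67%) and 610 lower (4.28%). The share of higher calls at 7 weeks was 57.0%, and 67.6% when library totals were used without TMM. Neuron markers were abundant at both ages, and the cortex list held 2438 to 2607 CPM in the control libraries at 7 weeks. At 7 weeks all 13 striatum markers were lower with TETA, with a summed level of 554 to 696 CPM against 1192 to 1460 CPM in controls. The 1-2 libraries of both groups stood apart from the other E18.5 libraries in several members, as described below.

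At E18.5, the mean levels of the 4 members known from the earlier results were 14.6% to 18.9% above control with TETA, and 30 of 36 members had a fold change above 0. Kdm3a, a histone lysine demethylase induced by HIF, ran from 71.6 to 80.7 CPM in the controls (median 76.2) and from 84.0 to 90.8 CPM with TETA (median 86.1). The groups did not overlap, and the log2 fold change was 0.20 (SE 0.037). P4ha1 encodes a catalytic subunit of the enzyme that hydroxylates collagen prolines. Its level was 28.3 to 32.5 CPM in controls (median 29.4) and 31.4 to 37.2 CPM with TETA (median 34.9), a log2 fold change of 0.23 (SE 0.051).

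Slc2a1, the glucose transporter of the blood-brain barrier, ran from 50.6 to 57.1 CPM in controls (median 53.8) and from 56.7 to 68.2 CPM with TETA (median 63.8), with a log2 fold change of 0.22 (SE 0.044). Ddit4, a stress-induced inhibitor of mTOR signalling, ran from 82.5 to 104 CPM in controls (median 91.7) and from 99.6 to 119 CPM with TETA (median 111), with a log2 fold change of 0.25 (SE 0.051). For P4ha1, Slc2a1 and Ddit4, 5 of 6 TETA libraries lay above every control, and the remaining library was TETA 1-2 each time. In Kdm3a that library was among the highest. Kdm3a, P4ha1, Slc2a1 and Ddit4 were 4 of the 10 genes that passed in DESeq2, which is part of what led to the choice of members. In bulk tissue, a different number of cells of a type and a different amount of RNA per cell cannot be told apart.

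**Figure D1:**
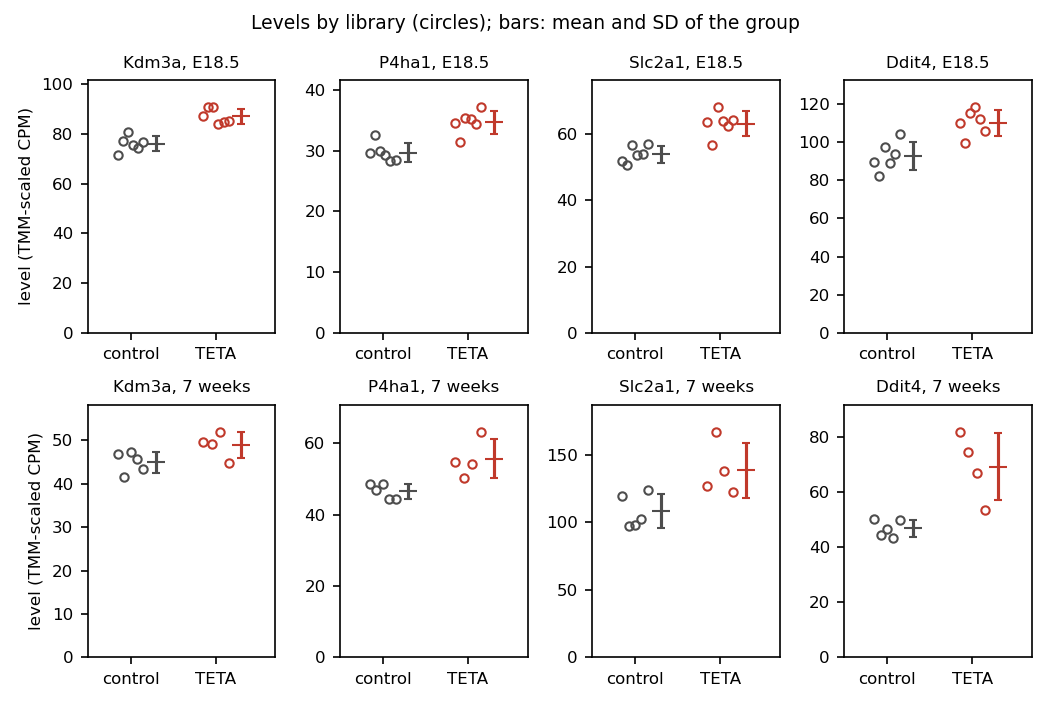
Level (TMM-scaled CPM, axis from 0) of Kdm3a, P4ha1, Slc2a1 and Ddit4 in each library (circles) at E18.5 and at 7 weeks, with the mean and SD of each group as bars. At E18.5 the Kdm3a groups are apart and 5 of 6 TETA libraries lie above all controls in the other 3 genes. At 7 weeks P4ha1 and Ddit4 groups are apart, while Slc2a1 and Kdm3a groups overlap.

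The promoters of these 4 genes are shown because the HIF core motif can be looked for in them. Sequences are from RefSeq on GRCm38.p6 and hold the 250 bases before an annotated transcription start. They are written in the direction of the gene, and capitals mark each ACGTG or GCGTG, or their reverse complements CACGT and CACGC, so that both strands were searched. Windows lie at chr6:71632918-71633167 (minus strand, Kdm3a), chr10:59323046-59323295 (plus strand, P4ha1), chr4:119108495-119108744 (plus strand, Slc2a1) and chr10:59951771-59952020 (minus strand, Ddit4). For Kdm3a, the window with a match is shown out of 3 annotated starts. The fifth, at chr16:36071562-36071811 (minus strand), belongs to Fam162a, a mitochondrial HIF target, picked because it had the most matches of any member window while its level did not pass the test at 7 weeks.
Kdm3a: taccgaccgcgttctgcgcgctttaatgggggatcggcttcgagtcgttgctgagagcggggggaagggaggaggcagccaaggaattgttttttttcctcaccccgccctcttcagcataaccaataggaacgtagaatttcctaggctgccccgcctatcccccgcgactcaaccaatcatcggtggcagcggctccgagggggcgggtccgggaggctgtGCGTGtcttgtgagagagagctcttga
P4ha1: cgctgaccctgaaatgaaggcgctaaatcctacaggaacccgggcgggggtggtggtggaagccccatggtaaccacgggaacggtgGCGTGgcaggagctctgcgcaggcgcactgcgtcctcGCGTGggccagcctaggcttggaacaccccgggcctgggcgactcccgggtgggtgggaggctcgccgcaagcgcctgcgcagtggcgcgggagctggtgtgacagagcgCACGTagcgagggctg
Slc2a1: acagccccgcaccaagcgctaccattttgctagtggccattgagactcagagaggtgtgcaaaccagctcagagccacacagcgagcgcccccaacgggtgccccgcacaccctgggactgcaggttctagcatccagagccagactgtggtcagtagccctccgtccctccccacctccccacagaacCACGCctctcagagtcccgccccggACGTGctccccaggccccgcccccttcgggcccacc
Ddit4: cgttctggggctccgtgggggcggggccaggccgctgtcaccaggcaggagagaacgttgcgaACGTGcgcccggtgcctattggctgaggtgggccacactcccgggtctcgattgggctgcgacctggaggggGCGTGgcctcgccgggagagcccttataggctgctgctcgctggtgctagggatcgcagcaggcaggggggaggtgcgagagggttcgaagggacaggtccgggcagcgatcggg
Fam162a: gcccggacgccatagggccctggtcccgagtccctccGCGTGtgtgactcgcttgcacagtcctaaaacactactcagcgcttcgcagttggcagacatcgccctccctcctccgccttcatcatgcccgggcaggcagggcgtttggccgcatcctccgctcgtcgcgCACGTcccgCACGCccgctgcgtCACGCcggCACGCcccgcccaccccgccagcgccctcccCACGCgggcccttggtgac

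The Kdm3a window shown holds 1 match and its other windows 0, P4ha1 holds 3, Slc2a1 and Ddit4 hold 2 each, and Fam162a holds 6. Of the 37 members, 33 had an entry, with 48 windows in all, and 39 of the 48 windows (81.3%) held at least 1 match, against 38.6% of 32851 windows of the same length over all genes. ACGTG was in 50% of the members' windows against 16.6% of all, and GCGTG in 54.2% against 28.2%. CACGTG, a palindrome that holds the first core on both strands, was in 10.4% against 6.02%. The members' windows had a median GC content of 64% and 19 CG dinucleotides, against 52.4% and 6 over all windows, and both cores contain a CG. No match was found for Vhl, Tpi1 and Car12. A match is a description of letters and not of binding, and the members were chosen partly as HIF targets.

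The 6 oxygen-sensing members were mixed at E18.5, with Hif3a and Egln3 furthest above control and Hif1a and Vhl level with it. Hif1a, the first described alpha subunit, had a level of 153 ± 8.72 CPM in controls and 151 ± 5.47 CPM with TETA (SD, n = 6 each), a log2 fold change of -0.01 (SE 0.040). Epas1, which encodes the HIF-2 alpha subunit prominent in vessels, had a log2 fold change of 0.09 (SE 0.052). Hif3a, an alpha subunit with inhibitory forms, was at 9.39 ± 1.1 CPM in controls and 11.3 ± 1.19 CPM with TETA (SD, n = 6 each), a log2 fold change of 0.26 (SE 0.083), with 4 of 6 TETA libraries above every control. Vhl was level, at 78.1 ± 3.56 against 77.8 ± 6.52 CPM (SD, n = 6 each). The prolyl hydroxylases Egln1 and Egln3, of which Egln3 is itself a HIF target, had log2 fold changes of 0.06 (SE 0.032) and 0.17 (SE 0.073).

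Of the 13 glucose uptake and glycolysis members, 12 had a fold change above 0 at E18.5. The exception was Pfkp, a phosphofructokinase, at -0.05 on the log2 scale (SE 0.069). Hk2, a hexokinase, and Slc16a3, a lactate exporter, were the members of this role furthest above 0, at log2 fold changes of 0.26 (SE 0.087) and 0.41 (SE 0.15). Both were at single-digit CPM in every library. Aldoa, Tpi1, Gapdh, Pgk1, Pgam1, Eno1 and Ldha lay between 0.08 and 0.16. They act on the way from fructose bisphosphate to lactate, of which pyruvate kinase (Pkm) is not a member here. These 7 were grouped after their values were seen.

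Libraries 1-2 of both groups were low in these 7 enzymes. The median of the 7 log2 differences from the control mean was -0.17 in control 1-2 and -0.16 in TETA 1-2, while the other 5 TETA libraries had medians from 0.10 to 0.21. All 7 enzymes were below the control mean in both 1-2 libraries, and also in control 2-2 (median -0.04). For each enzyme, 1 of the 1-2 pair was the lowest of all 12 libraries. Eno1, enolase, shows this: 5 TETA libraries were above every control and TETA 1-2, at 304 CPM, was below every control. With both 1-2 libraries left out, a choice made after seeing the data, the log2 fold changes were 0.24 for Slc2a1, 0.28 for P4ha1, 0.25 for Ddit4 and 0.19 for Kdm3a.

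Among the mitochondrial targets, Pdk1, which restrains pyruvate entry into the mitochondrion, was at 56.1 ± 1.82 CPM in controls and 61.2 ± 2.56 CPM with TETA at E18.5 (SD, n = 6 each), with 5 of 6 TETA libraries above every control. Bnip3 (a mitophagy receptor), Higd1a (an inner membrane protein) and Ak4 (a mitochondrial adenylate kinase) had log2 fold changes of 0.08, 0.01 and 0.13. Fam162a was at -0.04. The other collagen enzymes, P4ha2 and the lysyl hydroxylase Plod2, were at -0.14 and 0.04. Vegfa, the main growth factor of vessels, ran from 81.0 to 97.0 CPM in controls (median 84.7) and from 92.2 to 106 CPM with TETA (median 102), a log2 fold change of 0.21 (SE 0.048), with 4 of 6 TETA libraries above every control. Adm, a vasodilator peptide, and Car12, a carbonic anhydrase, were at 0.23 (SE 0.16) and 0.12 (SE 0.14). Mxi1, a Myc antagonist, was at 0.14 (SE 0.045), Ndrg1, a stress-response gene, at 0.04, Ankrd37, an ankyrin-repeat HIF target, at 0.07 and Bhlhe40, a transcriptional repressor, at -0.04. Car9 was at 0 to 0.27 CPM.

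The median log2 fold change of the 36 members at E18.5 was 0.09, against -0.00 over all genes, and 48.2% of all genes had a fold change above 0. Kdm3a was the 1 member whose groups did not overlap, among 43 such genes (0.312%). Because these values had a part in the choice of members, nothing is read from their counts. Of the endothelial markers, 8 of 12 were above 0, with a median log2 fold change of 0.07. Their summed level was 223 to 247 CPM with TETA and 195 to 227 CPM in controls. Immediate early genes summed to 69.6 to 82.5 CPM with TETA and 58.6 to 72.6 CPM in controls, with 8 of 10 above 0 and a median log2 fold change of 0.19. The endothelial and immediate early sums overlapped between groups. So did those of pericyte and smooth muscle markers (6 of 10 above 0, median 0.11) and meningeal fibroblast markers (6 of 8 tested above 0, median 0.15). With the endothelial score as a covariate (added after seeing the data), Slc2a1 was at 0.13 (SE 0.046) and Ddit4 at 0.14 (SE 0.054), while P4ha1 was at 0.25 (SE 0.066) and Kdm3a at 0.18 (SE 0.046). Of the 12 markers in the score, Flt1, Kdr and Tek are also on the list of other HIF targets, so the score is not independent of that pathway. Under that covariate the 7 enzymes lay between -0.03 and 0.06, with Gapdh, Pgk1 and Pgam1 below 0 and Eno1 at 0.05 (SE 0.066). The part of the other marker lists in the E18.5 values was not tested. Red blood cell markers overlapped, at 132 to 269 CPM in controls and 123 to 234 CPM with TETA.

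**Figure D2:**
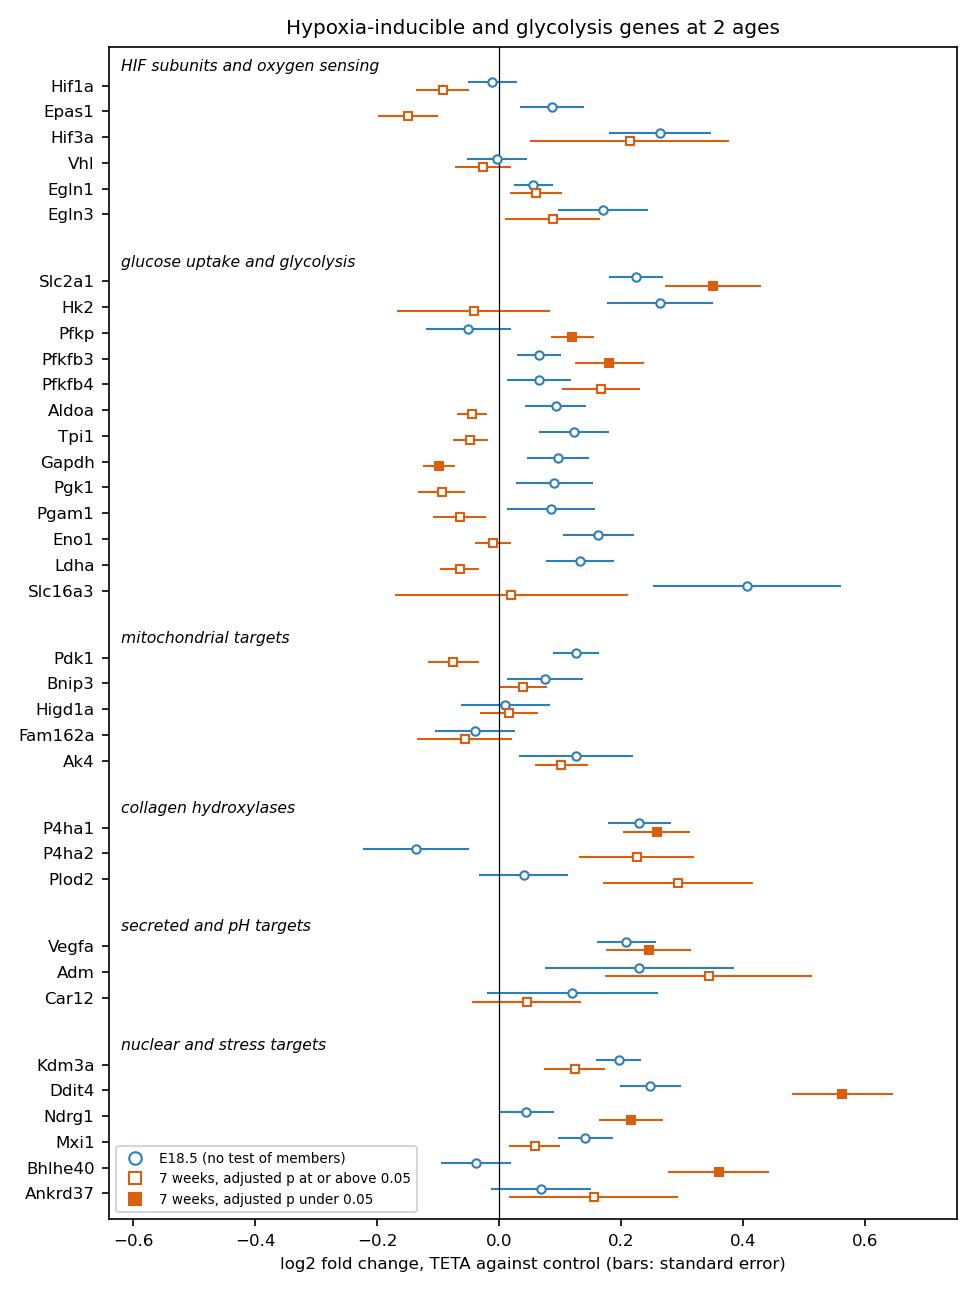
Log2 fold change of TETA against control (x axis) for 36 members by role, with the standard error as bars. Circles are E18.5 and squares are 7 weeks, filled where the adjusted p was under 0.05. At 7 weeks 8 members are filled to the right of 0 and Gapdh to the left, and the 7 enzymes from Aldoa to Ldha lie right of 0 at E18.5 and left of 0 at 7 weeks, where Eno1 (-0.01) changes sign without TMM.

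At 7 weeks, 8 members rose with TETA and 1 fell. Ddit4, P4ha1, Slc2a1, Bhlhe40, Ndrg1, Vegfa, Pfkp and Pfkfb3 were higher, by 8.58% (Pfkp) to 47.7% (Ddit4) of the control mean, and Gapdh was 6.61% lower than control. These 9 of 36 compare with 9.96% of all genes tested. In DESeq2, 8 members passed, against 9.82% of all genes, with Vegfa and Bhlhe40 lost and Epas1 gained as lower. The median log2 fold change of the 36 members was 0.06, against 0.00 over all genes, and 23 were above 0, against 50.1% of all genes. In 6 members every TETA library was above every control (Ddit4, P4ha1, Bhlhe40, Pfkp, Pfkfb4 and Adm), against 6.26% of all genes, and in 0 members every TETA library was below every control, against 4.9%.

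Among the nuclear and stress targets, Ddit4 had the largest change. Its level in controls 1 to 5 was 50.4, 44.4, 46.8, 43.5 and 49.9 CPM, and in TETA 1 to 4 it was 82.0, 74.8, 67.2 and 53.6 CPM. The groups did not overlap, though TETA 4 was close to the controls and the TETA libraries were more spread out. Ddit4 rose from 47.0 ± 3.12 (SD, n = 5) to 69.4 ± 12.1 CPM (SD, n = 4), which is 0.56 on the log2 scale (SE 0.083, edgeR adjusted p = 0.000181). Leaving out any 1 library gave log2 fold changes from 0.47 to 0.67, and it passed each time.

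Bhlhe40 is induced by hypoxia and by neuronal activity and also acts in the circadian clock. Its level was 161, 109.7, 143, 164 and 124 CPM in controls 1 to 5 and 168, 195, 182 and 175 CPM in TETA 1 to 4. All TETA libraries were above all controls, by a small margin over controls 1 and 4. It rose with a log2 fold change of 0.36 (SE 0.083, adjusted p = 0.00803 in edgeR), but in DESeq2 the adjusted p was 0.0564. Ndrg1 was at 74.6, 74.9, 74.3, 83.4 and 68.1 CPM in controls and 82.6, 94.0, 90.2 and 81.8 CPM with TETA. Control 4 lay within the TETA range and the other controls lay below it. It rose with a log2 fold change of 0.22 (SE 0.052, edgeR adjusted p = 0.0109). It did not pass with the immediate early score as a covariate (0.16, SE 0.058, adjusted p = 0.124) or with the endothelial score (0.20, SE 0.060, adjusted p = 0.0502).

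Kdm3a, the member with separate groups at E18.5, was at 46.9, 41.6, 47.2, 45.7 and 43.4 CPM in controls and 49.7, 49.1, 51.9 and 44.8 CPM with TETA at 7 weeks. TETA 1 to 3 were above every control and TETA 4 was inside their range. The log2 fold change was 0.12 (SE 0.050) and did not pass in edgeR (adjusted p = 0.128), and without TETA 4 it was 0.16 with an adjusted p of 0.0484. Mxi1 and Ankrd37 did not pass, at 0.06 (SE 0.041) and 0.15 (SE 0.14). All 6 members of this role had a fold change above 0, and their summed level was 439 to 506 CPM with TETA and 352 to 420 CPM in controls.

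Of the collagen hydroxylases, P4ha1 rose. Its level was 48.6, 47.0, 48.6, 44.4 and 44.3 CPM in controls and 54.7, 50.3, 54.3 and 63.2 CPM with TETA, with TETA 4 the highest and no overlap between groups. The log2 fold change was 0.26 (SE 0.055) with an edgeR adjusted p of 0.00436, and it ranged from 0.19 to 0.30 without any 1 library, passing each time. P4ha2 and Plod2 had fold changes above 0 that did not pass, at 0.22 (SE 0.094, adjusted p = 0.145) and 0.29 (SE 0.12, adjusted p = 0.147) in edgeR. Meningeal fibroblast markers summed to 98.2 to 115 CPM with TETA and 125 to 138 CPM in controls, with 4 of 10 markers lower by the test, and their part in the P4ha1 values was not tested.

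In the glucose uptake and glycolysis role, 4 of 13 members passed, 3 higher (5.67% of all genes) and 1 lower (4.28% of all genes). Slc2a1 was at 119.7, 97.3, 98.3, 103 and 124 CPM in controls and 127, 167, 138 and 123 CPM with TETA. TETA 1 to 3 were above every control, TETA 2 furthest, and TETA 4 was just below control 5. Slc2a1 rose from 108 ± 12.5 (SD, n = 5) to 139 ± 20.1 CPM (SD, n = 4), a log2 fold change of 0.35 (SE 0.079) with an edgeR adjusted p of 0.00662. It passed without any 1 library, between 0.25 and 0.40.

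Pfkp and Pfkfb3 rose by less. Pfkp, which catalyses the committed step of glycolysis, was at 349, 328, 348, 367.6 and 356 CPM in controls and 368.0, 369, 404 and 377 CPM with TETA, so that the groups only just separated. Its log2 fold change was 0.12 (SE 0.036, edgeR adjusted p = 0.0372), and it did not pass without control 1, 2 or 3 or without TETA 3 or 4. Pfkfb3 makes the sugar phosphate that activates phosphofructokinase. It was at 46.3, 49.4, 54.9, 49.3 and 42.5 CPM in controls and 53.2, 52.7, 55.5 and 57.8 CPM with TETA, where control 3 lay among the TETA libraries. Its log2 fold change was 0.18 (SE 0.056, edgeR adjusted p = 0.0470), and it passed only without control 3 among the 9 fits that left out 1 library. Its relative Pfkfb4 had separate groups, with TETA at 13.7 to 14.8 CPM and controls at 12.3 to 13.6 CPM, but did not pass (log2 fold change 0.17, adjusted p = 0.109 in edgeR).

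Gapdh, the glyceraldehyde phosphate dehydrogenase often taken as a reference gene, fell. Its level was 1980.3, 2098, 2128, 2090.1 and 2144 CPM in controls and 1933, 1938, 2002 and 1928 CPM with TETA. Only TETA 3 reached the control range, above control 1. The log2 fold change was -0.10 (SE 0.026, edgeR adjusted p = 0.0200), and it did not pass without TETA 1 or without TETA 4 (adjusted p = 0.0593 and 0.0505). Aldoa, Tpi1, Pgk1, Pgam1, Eno1 and Ldha also had fold changes below 0, between -0.09 and -0.01, and did not pass. Pgk1 passed without TETA 4 alone, at -0.13 (adjusted p = 0.0451 in edgeR). Hk2 (-0.04, SE 0.13) and Slc16a3 (0.02, SE 0.19) were not measured precisely. The annotation holds named pseudogenes of Gapdh, Pgk1, Pgam1, Ldha, Aldoa and Vhl, so their counts are uncertain by reads shared with such copies. Copies under other names were not looked for. The symbol Aldoa stands for 2 gene entries.

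**Figure D3:**
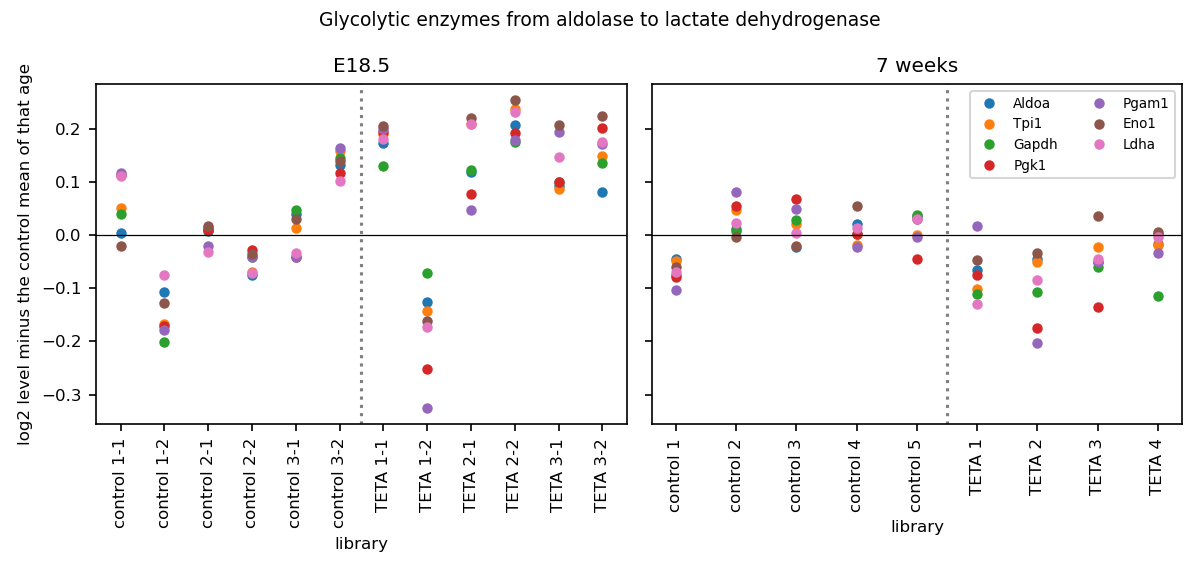
Log2 level of Aldoa, Tpi1, Gapdh, Pgk1, Pgam1, Eno1 and Ldha in each library relative to the control mean of its age (points are enzymes). The medians over the 7 enzymes, not drawn, are -0.17 and -0.16 in the 1-2 libraries at E18.5 and 0.10 to 0.21 in the other 5 TETA libraries. At 7 weeks the medians are below 0 in all 4 TETA libraries and in control 1 (-0.07), which is lower than TETA 3 and TETA 4.

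Vegfa rose at 7 weeks with a log2 fold change of 0.24 (SE 0.070, edgeR adjusted p = 0.0290). Its level was 74.0, 60.6, 64.8, 76.9 and 58.2 CPM in controls and 74.4, 74.8, 79.1 and 88.5 CPM with TETA, and only control 4 was inside the TETA range. It did not pass without control 2, 3 or 5 or without TETA 3 or 4, nor in DESeq2, where the adjusted p was 0.127. Adm had separate groups at a low level, 1.26 to 2.2 CPM in controls and 2.23 to 2.45 CPM with TETA, and did not pass (log2 fold change 0.34, SE 0.17, adjusted p = 0.225 in edgeR). Car12 was at 0.04 (SE 0.089), and Car9 was below 1 CPM in every library. None of the 5 mitochondrial targets passed in edgeR, against 9.96% of all genes, so the count is near that share. Their log2 fold changes were -0.08 (Pdk1), 0.04 (Bnip3), 0.02 (Higd1a), -0.06 (Fam162a) and 0.10 (Ak4).

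**Figure D4:**
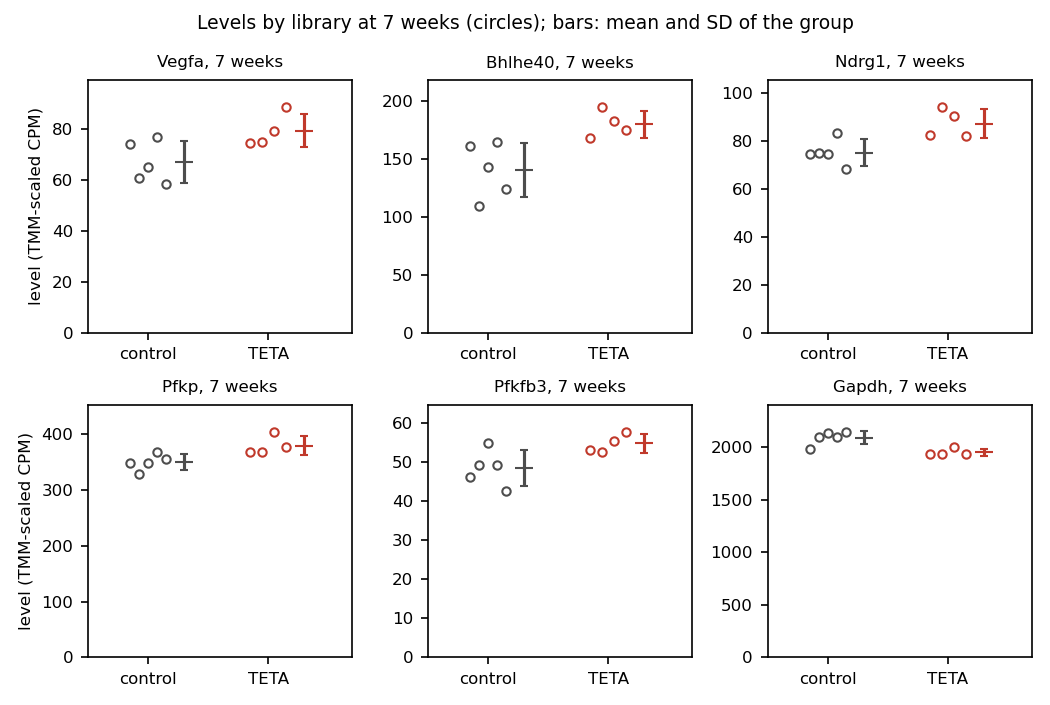
Level (TMM-scaled CPM, axis from 0) in each library at 7 weeks (circles) with the mean and SD of the group as bars, for Vegfa, Bhlhe40, Ndrg1, Pfkp, Pfkfb3 and Gapdh. Groups are apart for Bhlhe40 and Pfkp and overlap for the other 4 genes, and Gapdh is the gene that is lower with TETA.

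None of the 6 HIF subunits and oxygen sensors passed at 7 weeks, where 9.96% of all genes did, so the count is near that share. Hif1a was at 84.2, 83.2, 86.1, 81.0 and 79.0 CPM in controls and 73.1, 79.7, 74.1 and 83.4 CPM with TETA. TETA 1 and 3 were below every control, and the log2 fold change was -0.09 (SE 0.043, adjusted p = 0.190 in edgeR). Epas1 was at 152, 144, 138, 157 and 166 CPM in controls and 134, 149.6, 129 and 134 CPM with TETA. TETA 1, 3 and 4 were below every control and TETA 2 was inside their range. The log2 fold change of Epas1 was -0.15 (SE 0.050) and its adjusted p was 0.0620 in edgeR. It passed without control 2, control 3 or TETA 2, with no filter on low counts and in DESeq2 (adjusted p from 0.0187 to 0.0478).

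Hif3a was at 8.54, 5.53, 7.84, 7.36 and 10.3 CPM in controls and 7.82, 13.04, 9.42 and 6.83 CPM with TETA, where TETA 2 alone was above the controls (log2 fold change 0.21, SE 0.16, adjusted p = 0.471 in edgeR). Vhl was at 48.6, 51.4, 51.4, 45.7 and 46.9 CPM in controls and 47.6, 45.8, 47.5 and 50.7 CPM with TETA, all inside the control range. Egln1 was at 108, 106, 104, 102 and 111 CPM in controls and 105, 121, 105 and 112 CPM with TETA, with TETA 2 again the highest. Egln3 was at 12.5, 13.9, 12.9, 14.0 and 10.99 CPM in controls and 13.4, 12.7, 14.9 and 13.5 CPM with TETA, which overlapped. The log2 fold changes of Vhl, Egln1 and Egln3 were -0.03 (SE 0.046), 0.06 (SE 0.042) and 0.09 (SE 0.078), with edgeR adjusted p of 0.775, 0.431 and 0.549.

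The 7-week changes went with differences in markers of region and activity. Adding the striatum score as a covariate left 1 gene past the threshold over the whole table and 0 members. Under it the log2 fold change was 1.04 (SE 0.27) for Ddit4, 0.46 (SE 0.28) for Slc2a1, 0.24 (SE 0.20) for P4ha1, 0.74 (SE 0.29) for Bhlhe40 and -0.08 (SE 0.12) for Pfkp. It was 0.35 (SE 0.26) for Vegfa, 0.26 (SE 0.19) for Ndrg1, 0.20 (SE 0.21) for Pfkfb3 and -0.23 (SE 0.094) for Gapdh. All had wider standard errors than without the score. The 13 striatum markers had no overlap between groups, so their score nearly repeats the split into TETA and control. The fit with that score cannot tell score and treatment apart, and nothing is read from the lost calls. Immediate early genes summed to 813 to 1001 CPM with TETA and 527 to 926 CPM in controls, with Fosb and Arc higher by the test. With their score as a covariate (added after seeing the data) 3 of 36 members passed, against 6.09% of all genes: Ddit4 at 0.53, Slc2a1 at 0.37 and P4ha1 at 0.24. Dusp1, a gene of that score, is also on the list of other HIF targets.

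Endothelial markers summed to 213 to 234 CPM with TETA and 202 to 231 CPM in controls at 7 weeks, with 1 of 12 higher (Flt1). With that score as a covariate, also added later, 4 of 36 members passed, against 6.19% of all genes: Ddit4 (0.59), Slc2a1 (0.34) and P4ha1 (0.27) as higher and Epas1 (-0.21) as lower. Bhlhe40, Ndrg1, Vegfa, Pfkp, Pfkfb3 and Gapdh did not pass under either of these 2 scores. With the endothelial score their log2 fold changes were 0.31, 0.20, 0.19, 0.10, 0.21 and -0.10 in that order, and with the immediate early score 0.21, 0.16, 0.13, 0.12, 0.14 and -0.07. Astrocyte markers summed to 5290 to 5639 CPM with TETA and 5754 to 6610 CPM in controls, with 3 of 10 lower, among them the glycolysis enzyme Aldoc. The part of region, activity and astrocyte markers in the members' changes was not tested further. Exons of Slc2a1, Pfkp, Gapdh, Ndrg1 and Bhlhe40 overlap a gene on the opposite strand in the annotation, and whether strand was used in counting is not given in the sources used here. P4ha1, Ddit4, Vegfa, Kdm3a and Pfkfb3 have no such overlap.

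Set side by side, 20 of the 36 members had a fold change above 0 at both ages, 3 below 0 at both, and 13 had opposite signs. Same-sign members were 63.9%, against 48.6% of 13434 genes tested at both ages. The ages share no libraries, but the E18.5 values had a part in choosing the members. Ddit4, Slc2a1, P4ha1 and Vegfa were above 0 at both ages, by 0.25 and 0.56, 0.22 and 0.35, 0.23 and 0.26, and 0.21 and 0.24. Bhlhe40 and Pfkp rose at 7 weeks and were at -0.04 and -0.05 at E18.5. The 7 enzymes from Aldoa to Ldha were all above 0 at E18.5 and all below 0 at 7 weeks, except that Gapdh, Pgk1 and Pgam1 were below 0 at E18.5 with the endothelial covariate, and Eno1 was above 0 at 7 weeks by at most 0.01 without TMM, without control 4, without TETA 1 and with the immediate early covariate. Whether any member's response differed between the ages was not tested.

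The remaining genes of the pathway came from 3 lists of non-members, to be read against 9.96% of all genes that passed at 7 weeks (5.67% higher and 4.28% lower). Of 15 other components of the HIF machinery tested at 7 weeks, 1 was higher (Arnt, the constant partner, log2 fold change 0.26, SE 0.057, edgeR adjusted p = 0.00481) and 0 were lower, with a median of 0.00. Of 54 other HIF targets, 5 were higher and 5 lower, with a median of 0.02. The leading ones were Wsb1 (a ubiquitin ligase adaptor, 0.36), Flt1 (a VEGF receptor, 0.22) and Tgfb3 (a growth factor, 0.31) among the higher, and Klf6 (a transcription factor, -0.25), Rragd (a GTPase of nutrient sensing, -0.13) and Anxa2 (a membrane-binding protein, -0.45) among the lower. Of 25 other glycolysis genes, 0 were higher and 3 lower, with a median of -0.03. These were Aldoc (-0.21), Pfkm (the muscle-type phosphofructokinase, -0.09) and Pdha1 (a subunit of pyruvate dehydrogenase, -0.10). At E18.5, 0 genes of the 3 lists passed in edgeR, and 48.2% of all genes had a fold change above 0. Those above 0 were 6 of 15 in the other HIF machinery (median -0.02), 40 of 54 among the other HIF targets (median 0.05) and 12 of 23 among the other glycolysis genes (median 0.02).

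In the control libraries, most members differed between E18.5 and 7 weeks, and so did the markers of cell types. Of 36 members, 19 were higher at 7 weeks (44% of all genes) and 13 lower (45.5% of all genes) by edgeR's test, which is 32 of 36 against 89.5% of 14375 genes tested, so the share is near the background. Their median log2 fold change was 0.36, against -0.02 over all genes. The median log2 fold change of the marker lists over the same libraries was 7.77 for oligodendrocytes, 2.76 for microglia, 2.68 for astrocytes, -3.02 for neural progenitors and -1.99 for red blood cells, and their part in the members' values was not tested. Age cannot be told apart from any difference in region, sex or processing between the sample sets. Using library totals without TMM moved the all-gene median to -0.17 and changed the sign of Egln1 alone among the members that passed, from 0.11 to -0.04.

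Bhlhe40 had the largest rise, from 16.1 ± 1.22 CPM at E18.5 (SD, n = 6) to 148 ± 24.8 CPM at 7 weeks (SD, n = 5), a log2 fold change of 3.2 (SE 0.087, edgeR adjusted p = 1.80e-20). Aldoa rose by 3.0 (SE 0.041), to 1675 ± 39.4 CPM (SD, n = 5), and Ak4 by 2.7 (SE 0.061), to 66.9 ± 3.26 CPM (SD, n = 5). All 7 enzymes from Aldoa to Ldha were higher at 7 weeks, with the smallest change in Ldha (0.47, SE 0.039), and 20 of 25 other glycolysis genes were higher and 4 lower. The 3 largest falls were in Plod2 (-1.43, SE 0.094), Pfkfb3 (-1.24, SE 0.051) and Pfkfb4 (-1.14, SE 0.058), so both Pfkfb members went against the enzymes. Pfkfb3 went from 121 ± 4.79 CPM (SD, n = 6) to 51.1 ± 4.75 CPM (SD, n = 5).

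The alpha subunit genes Epas1 and Hif1a changed in opposite directions with age. Epas1 rose from 27.4 ± 1.37 (SD, n = 6) to 159.8 ± 11.7 CPM (SD, n = 5), a log2 fold change of 2.54 (SE 0.050), and Hif1a fell from 146 ± 8.41 (SD, n = 6) to 87.2 ± 2.84 CPM (SD, n = 5), a log2 fold change of -0.74 (SE 0.042). Of the members that were higher with TETA at 7 weeks, Slc2a1 (1.15), P4ha1 (0.80) and Bhlhe40 were higher in the older controls, while Ddit4 (-0.84), Ndrg1 (-0.45), Vegfa (-0.24), Pfkp (-0.25) and Pfkfb3 were lower. Kdm3a was lower too (-0.62), and Hif3a, Hk2, Slc16a3 and Adm did not pass.

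**Figure D5:**
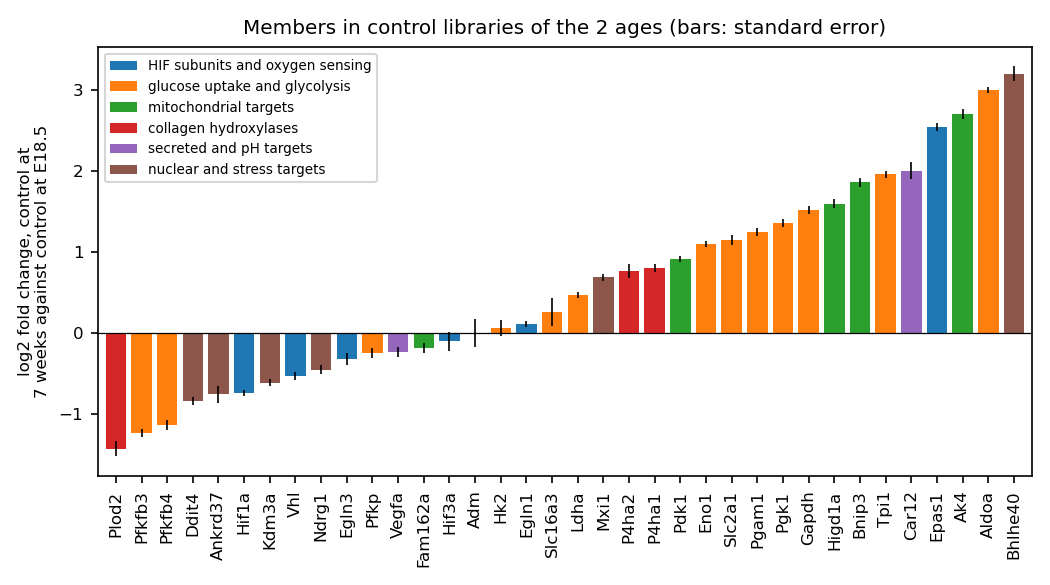
Log2 fold change of control libraries at 7 weeks against control libraries at E18.5 (axis in log2 units) for the tested members by role, with the standard error as bars. Bhlhe40 (3.2), Aldoa (3.0) and Ak4 (2.7) lie furthest to the right, and Plod2, Pfkfb3 and Pfkfb4 furthest to the left.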

How the data were processed

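Tables of whole-number read counts per gene symbol were deposited by the authors, 1 for each age. Per the submitters' processing notes, reads were handled with STAR 2.7.1a and featureCounts 2.0.1 on mm10. Libraries were TruSeq stranded mRNA per the labels' protocols, and the annotation and strand setting are not given in the sources used here. In the E18.5 table, rows at 0 in control 1-1 hold multiples of 11 in the other libraries and were divided by 11, and no member is among them. Counts were tested per age with edgeR 4.0.16 (R 4.3.3; filterByExpr with a minimum count of 10, TMM, quasi-likelihood test, Benjamini-Hochberg threshold 0.05). SE is the log2 fold change over the square root of F. DESeq2 1.42.0 was an alternative. The scripts were tested on simulated counts. All replicate pairs differed beyond sampling noise (chi-square per gene at least 2.29 at E18.5 and 2.39 at 7 weeks). Gene positions came from GENCODE and promoters from RefSeq.

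The members and lists were chosen with earlier results of these data known. Library values were given for Kdm3a, P4ha1, Slc2a1 and Ddit4, for members past the threshold at 7 weeks and for the HIF subunits and hydroxylases. The 3 largest changes in each direction were named for age, and at most 3 genes of each direction for each list of non-members. The alternatives were other filters, scaling and tools, each library left out, a replicate block, the E18.5 counts as deposited or summed over shared first numbers, and marker scores as covariates.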

Additional observations from a re-analysis of the deposited data

Results flagged for a closer look

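Within groups of 4 to 6 libraries, 1 library stood far from the others of its group in 12 of 148 member and group combinations, where chance alone gives about 1 in 20, or 7.4. Of the 12, 9 were in the E18.5 libraries numbered 1-2. The ratio divides the distance from the next library by the whole spread of that group.

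In TETA 1-2 at E18.5, 5 glycolysis enzymes were low. Eno1 was at 304 CPM against 393 to 406 CPM in the other TETA libraries (ratio 0.869), Ldha at 246 against 306 to 325 CPM (0.767) and Pgk1 at 101 against 127 to 138 CPM (0.696). Gapdh was at 765 CPM against 861 to 908 CPM (0.673) and Pgam1 at 58.1 against 75.2 to 83.6 CPM (0.670). The same library was high in Pfkp, at 515 against 413 to 441 CPM (0.730), and in Hif1a, at 162 against 147 to 151 CPM (0.765).

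Control 1-2 at E18.5 was also high in Pfkp, at 576 CPM against 391.6 to 456 CPM in the other controls (0.650), and in Ak4, at 13.4 against 9.91 to 10.8 CPM (0.741). Bnip3 was high in TETA 2-1 at E18.5, at 35.5 against 30.6 to 32.2 CPM (0.677). At 7 weeks, Gapdh in TETA 3 was at 2002 CPM against 1928 to 1938 CPM (0.877), and Ldha in control 1 at 331 CPM against 349 to 355 CPM (0.737).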

How the results depend on the processing

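At 7 weeks, Ddit4, P4ha1 and Slc2a1 passed in 16 of 17 alternatives. The exception was the striatum covariate, whose score nearly repeats the split into TETA and control. The count over all genes, 1418 as reported, was 927 to 1392 with 1 library left out (lowest without TETA 3), 1 with the striatum score, 867 with the immediate early score and 882 with the endothelial score as covariates. The members past the threshold, 9 as reported, were 6 to 9 with 1 library left out and 0, 3 and 4 under those 3 scores. Pfkp reversed to -0.0761 under the striatum score. At E18.5, the count of 0 was 10 with DESeq2, 2 when libraries sharing a first number were summed, 7 without both 1-2 libraries, and 0 to 7 with 1 library left out (7 without TETA 1-2, 3 without control 3-2). Between ages, Egln1 reversed to -0.0388 without TMM. The cause was not tested in any of these cases. The marker scores and the fit without both 1-2 libraries were chosen after seeing the data, except the striatum score. Car9, Adm, Hk2, Slc16a3 and Ankrd37 were at single-digit CPM or lower in every library. So were Plod2 at 7 weeks and Car12 and P4ha2 at E18.5.

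The labels give both groups the same replicate numbers, and the check of whether these numbers pair the libraries was mixed at E18.5. Deviations of same-numbered libraries correlated at 0.199, 0.280 and 0.284 for 1-1, 1-2 and 3-2 and at -0.161 to -0.275 for the other 3 numbers at E18.5, and at -0.0692 to -0.0295 at 7 weeks, so the libraries were not treated as pairs. With the number as a replicate block, 0 genes passed at E18.5 and 1063 at 7 weeks, 6 of them members (Slc2a1, Pfkp, P4ha1, Vegfa, Ddit4 and Bhlhe40).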
